A study of Mus musculus with 6 samples.

Results

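Interferon-stimulated genes are the transcripts that cells switch on when an interferon binds its receptor, and 35 of them were followed in mouse blood after food restriction. They were chosen by gene symbol as a list of interferon-induced antiviral effectors, RNA sensors, guanylate-binding proteins, IFITM proteins and other induced genes, and probes were assigned to them through the RefSeq accession on the array. Of the 35 genes, 31 had at least 1 probe, 46 probes in all, and 24 were bright enough to be tested among 11510 features. No probe was matched to Mx1, Mx2, Xaf1 or Sp100, and they are not analysed here. Oas1a, Oasl1, Ddx58, Dhx58, Ifi44, Cmpk2 and Gbp3 had probes that stayed below the brightness filter.

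All animals were C57BL/6J males, from an inbred laboratory strain, aged 9 weeks. The FR animals (n = 8) received 50% food restriction of a standard chow (CE-2) for 2 weeks, and the control animals (n = 8) ate the normal diet. Both diets shared the strain, sex and age, and no animal carried a transgene or received another agent before anaesthesia, as far as the labels say. Whole blood RNA was combined for each diet into pool 1 (animals 1 to 8), pool 2 (1 to 4) and pool 3 (5 to 8). The FR and control RNA of a pool met on 2 two-colour Agilent arrays, once in each dye order, which makes 6 arrays. The tests rest on pools 2 and 3 as 2 replicates from different animals, and pool 1 reads those animals a second time on another slide. Pooling hides the spread between single animals.

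Type I interferons (alpha and beta) act on a receptor of IFNAR1 and IFNAR2 chains, and interferon gamma on IFNGR1 and IFNGR2. The receptors use the JAK kinases to phosphorylate STAT proteins. A complex of STAT proteins with IRF9 binds the interferon-stimulated response element (ISRE) in promoters, whereas STAT dimers bind gamma-activated sites (GAS). Low levels of these transcripts are present in blood cells without infection, and monocytes and plasmacytoid dendritic cells are among the cells known for strong interferon responses.

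Many promoters of the list held the ISRE core. RefSeq windows (assembly GRCm38.p6) from 250 bases before to 50 bases after the start were held for 26 of the 35 genes. The core searched was GAAA, then 2 bases of any kind, then GAAA, on either strand, with overlapping matches counted. It was found in 14 of the 26 genes (53.85%), against 1079 of 27025 genes with a window (3.993%). The GAS core, TTC, then 3 bases of any kind, then GAA, was found in 6 of 26 (23.08%), against 9.554% of all genes. The shares are descriptions with no test, and a match is a string of letters, not a site shown to be bound.

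The 160 bases before the start are printed for 6 genes, picked after their values were seen. They set lower genes with and without the core beside a gene with the core that did not pass the test. Matches are in capitals. The stretches lie at chr4:156200819-156200978 (minus strand) for Isg15, chr12:26456453-26456612 (minus strand) for Rsad2, chr19:34640729-34640888 (plus strand) for Ifit1, chr19:34583369-34583528 (plus strand) for Ifit3, chr8:71537473-71537632 (minus strand) for Bst2 and chr5:114896774-114896933 (plus strand) for Oasl2.
Isg15: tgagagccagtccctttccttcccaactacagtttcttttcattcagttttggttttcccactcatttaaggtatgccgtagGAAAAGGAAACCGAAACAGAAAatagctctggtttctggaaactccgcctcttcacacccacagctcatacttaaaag
Rsad2: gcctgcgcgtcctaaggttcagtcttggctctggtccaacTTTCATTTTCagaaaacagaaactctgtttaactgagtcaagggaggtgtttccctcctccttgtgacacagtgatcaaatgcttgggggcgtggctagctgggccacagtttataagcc
Ifit1: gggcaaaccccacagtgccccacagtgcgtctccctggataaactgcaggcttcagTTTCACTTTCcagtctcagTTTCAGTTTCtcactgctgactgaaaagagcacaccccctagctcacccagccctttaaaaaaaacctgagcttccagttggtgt
Ifit3: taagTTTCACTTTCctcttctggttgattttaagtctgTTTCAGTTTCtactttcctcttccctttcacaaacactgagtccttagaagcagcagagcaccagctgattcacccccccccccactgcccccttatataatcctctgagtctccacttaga
Bst2: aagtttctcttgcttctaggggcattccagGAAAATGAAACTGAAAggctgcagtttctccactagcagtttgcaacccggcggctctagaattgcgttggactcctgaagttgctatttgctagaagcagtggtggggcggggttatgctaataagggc
Oasl2: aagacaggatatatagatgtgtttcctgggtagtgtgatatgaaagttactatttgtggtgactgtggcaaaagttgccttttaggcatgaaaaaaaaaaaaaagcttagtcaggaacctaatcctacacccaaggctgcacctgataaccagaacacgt
Isg15 held 3 overlapping matches, with first bases at -78, -72 and -66 from the start. Bst2 held 2 overlapping matches at -130 and -124, Ifit1 held separate matches at -104 and -85, Ifit3 at -156 and -122, and Rsad2 held 1 at -120. Oasl2 held none in its window.

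Genes with and without the core had close median ratios. The 11 tested genes with a match had a median log2 ratio (FR over control) of -0.54, and the 7 without had -0.59. Of the genes lower in FR with a window, 9 of 15 held the core, and of the tested genes that did not pass, 2 of 3 did. A gene counted if any of its windows held a match. These are descriptions of few genes, with no test.

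Interferon-stimulated transcripts were lower in FR blood, and none was higher. Signals in the text are normalized intensities, and a log2 ratio of -1 means that FR had 50% of the control signal. A gene is called lower when its limma p, adjusted by Benjamini-Hochberg over all 11510 features, is under 0.05. Of the 11 genes above background in both diets on all 4 arrays of pools 2 and 3, 10 were lower, where 18.5% of features bright in both diets were lower when fitted alone. Over all 24 tested genes 18 were lower, 0 higher and 6 did not pass, beside 24.5% of all features lower and 3.74% higher. The median log2 ratio of the 24 was -0.57, against 0.01 for all features. The other 13 genes entered through the control arrays alone, which favours genes that fall, so the count of 24 is a description.

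The pools differed in size of response but not in direction for most of the list. The median log2 ratio was -0.65 in pool 1, -0.68 in pool 2 and -0.44 in pool 3. On all 6 arrays 20 of the 24 genes were below 0, and 0 of the 24 were above 0 on all 6, beside 30% of all features below 0 on all 6. The 13 genes that entered through control alone are among the 24. The ratio was more negative in pool 2 than in pool 3 for 20 of the 24, by a median of -0.30, where the median over all features was -0.03. The SD between these pools had a median of 0.21 over the genes and 0.13 over all features. In bulk blood, fewer cells of a type and less RNA per cell cannot be told apart.

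**Figure D1:**
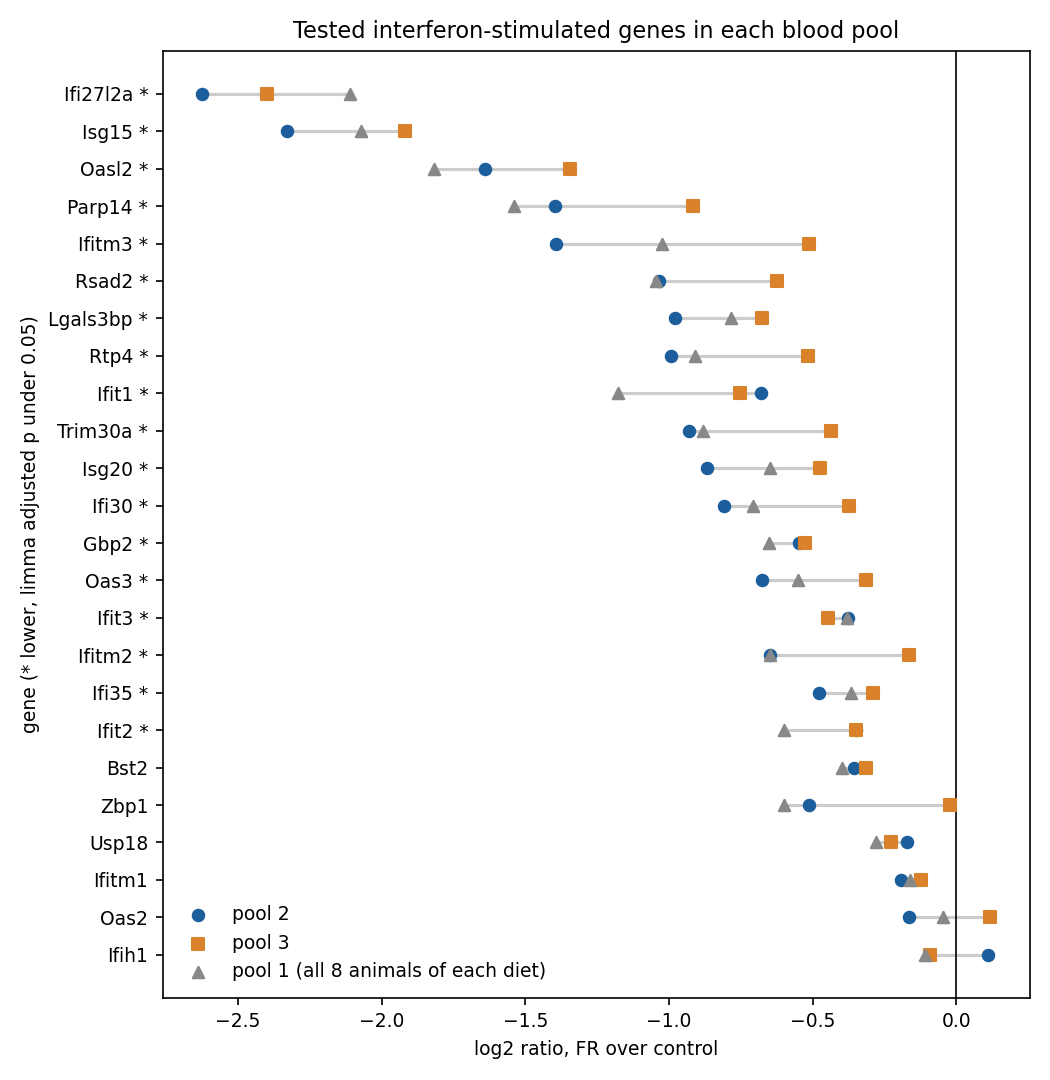
Log2 ratio of FR over control (horizontal axis) for each of the 24 tested genes (vertical axis), with a circle for pool 2, a square for pool 3 and a triangle for pool 1; an asterisk marks genes lower at a limma adjusted p under 0.05. Ifi27l2a, Isg15 and Oasl2 lie below -1 in every pool, and the lowest 6 genes in the plot, Bst2 to Ifih1, did not pass.

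The certainty of these calls depends on how the spread is estimated from 2 pools. From 2 pools, limma took the variance as common to all features of the same brightness (infinite prior degrees of freedom), which makes p-values very small. With the 5.41 prior degrees of freedom that a fit of all 3 pools gave (the 3-pool prior), 12 of the 24 genes were lower, beside 15.5% of all features. With no replicate block, FR and control signals compared without their pairing on the array, 9 were lower, beside 8.56% of all features: Ifi27l2a, Isg15, Oasl2, Parp14, Ifitm3, Rsad2, Lgals3bp, Ifit1 and Isg20. Adjusted p-values below are of the main fit unless said otherwise.

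Among antiviral effectors, Rsad2 and Isg20 were above background in both diets on all 4 arrays of pools 2 and 3, and both fell. Rsad2 encodes viperin, a radical SAM enzyme that makes a chain-terminating nucleotide. Its signal was 9665, 10541 and 10823 in FR pools 1, 2 and 3, against 19931, 21580.2 and 16699 in control pools. No FR value reached the lowest control value. The log2 ratio was -0.83 ± 0.29 (SD, n = 2 pools) with a limma adjusted p of 8.9e-06, and 0.024 under the 3-pool prior. Its 2 other probes read -0.92 and -0.98 in pool 2 but -0.21 and -0.16 in pool 3. Isg20 encodes an RNA exonuclease. Its signal was 30237, 31894 and 38987 in FR pools 1, 2 and 3, against 47398, 58265 and 54114 in control pools. The groups did not overlap. Isg20 had a log2 ratio of -0.67 ± 0.28 (SD, n = 2 pools, limma adjusted p = 0.0036), but the adjusted p was 0.068 under the 3-pool prior.

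The oligoadenylate synthetase family was split. Oasl2, a family member that binds double-stranded RNA, had signals of 71.8, 111 and 105 in FR pools 1, 2 and 3, against 253, 348 and 267 in control pools. Every control value was more than the highest FR value, and FR was above background on 2 of the 4 arrays. Oasl2 thus entered through the control arrays alone, which favours such a gap. The log2 ratio was -1.49 ± 0.21 (SD, n = 2 pools, limma adjusted p = 4.3e-20). Oas3, which makes the 2'-5' oligoadenylates that activate RNase L, had signals of 132, 175 and 166 in FR pools, against 193, 279.8 and 207 in control pools. The log2 ratio was -0.50 ± 0.26 (SD, n = 2 pools, limma adjusted p = 0.0075, and 0.091 under the 3-pool prior). A second Oas3 probe, which did not pass the filter, read -0.08, 0.06 and -0.14 in pools 1, 2 and 3. Oas2, of the same enzyme group, had 75.5, 79.0 and 128 in FR pools, against 78.0, 88.5 and 118 in control pools, so the groups overlapped. Its log2 ratio was -0.02 (limma adjusted p = 0.91), with FR above background on 2 of the 4 arrays. Oas1a and Oasl1 were not tested: their log2 ratios in pools 1, 2 and 3 were -0.21, -0.06 and -0.06 for Oas1a and -0.25, -0.36 and -0.36 for Oasl1.

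The IFIT genes, which encode proteins that bind foreign or uncapped RNA, were called lower. All of them entered through the control arrays alone, which favours genes that fall. FR was above background on 3 of the 4 arrays for Ifit1 and on 2 for Ifit2. Ifit1 had signals of 77.2, 112 and 92.2 in FR pools 1, 2 and 3, against 174, 179 and 156 in control pools. The groups did not overlap, and the log2 ratio was -0.72 ± 0.05 (SD, n = 2 pools, limma adjusted p = 1.7e-06). Ifit3 had 74.1, 97.6 and 74.8 in FR pools, against 96.6, 127 and 102 in control pools, and the groups overlapped narrowly. No FR signal of the 4 arrays cleared background, so control was at least 1.27-fold higher. Its limma adjusted p was 0.0015. Ifit2 had 82.0, 100.1 and 86.6 in FR pools, against 124, 128 and 110.2 in control pools. The log2 ratio was -0.35 (limma adjusted p = 0.014, and 0.080 under the 3-pool prior), and a second Ifit2 probe, which did not pass the filter, read 0.02 in pool 2 and -0.08 in pool 3. IFIT genes are paralogs, and whether their probes hybridise to each other's transcripts was not tested.

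Bst2 and Zbp1 did not pass the test. Bst2, which encodes tetherin, a protein that holds budding virus at the cell surface, had 113, 118 and 120.1 in FR pools 1, 2 and 3, against 148, 151 and 149 in control pools. The groups did not overlap, but the log2 ratio of -0.34 ± 0.03 (SD, n = 2 pools) had a limma adjusted p of 0.057. Zbp1, a sensor of Z-form nucleic acid that can start cell death, had 92.7, 105 and 117 in FR pools, against 141, 149.7 and 119 in control pools. Its ratio was -0.60 in pool 1, -0.51 in pool 2 and -0.02 in pool 3, and the limma adjusted p was 0.13. Cmpk2, a mitochondrial nucleotide kinase, was not tested; one probe read -0.58, -0.43 and -0.20 and the other -0.03, -0.14 and -0.06 in pools 1, 2 and 3.

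Isg15, a ubiquitin-like protein that is joined to other proteins after interferon, was clearly separated between the diets. Its signal was 357, 493 and 561 in FR pools 1, 2 and 3, against 1500.3, 2478 and 2123 in control pools. The highest FR pool lay well under the lowest control pool. This gave a log2 ratio of -2.12 ± 0.29 (SD, n = 2 pools), 4.36-fold lower, with a limma adjusted p of 9.5e-46, and 0.0016 under the 3-pool prior. Usp18, the protease that removes ISG15 and restrains the type I receptor, had 77.5, 94.8 and 89.1 in FR pools, against 94.2, 107 and 104 in control pools. FR cleared background on none of the 4 arrays, and the log2 ratio of -0.20 had a limma adjusted p of 0.20.

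**Figure D2:**
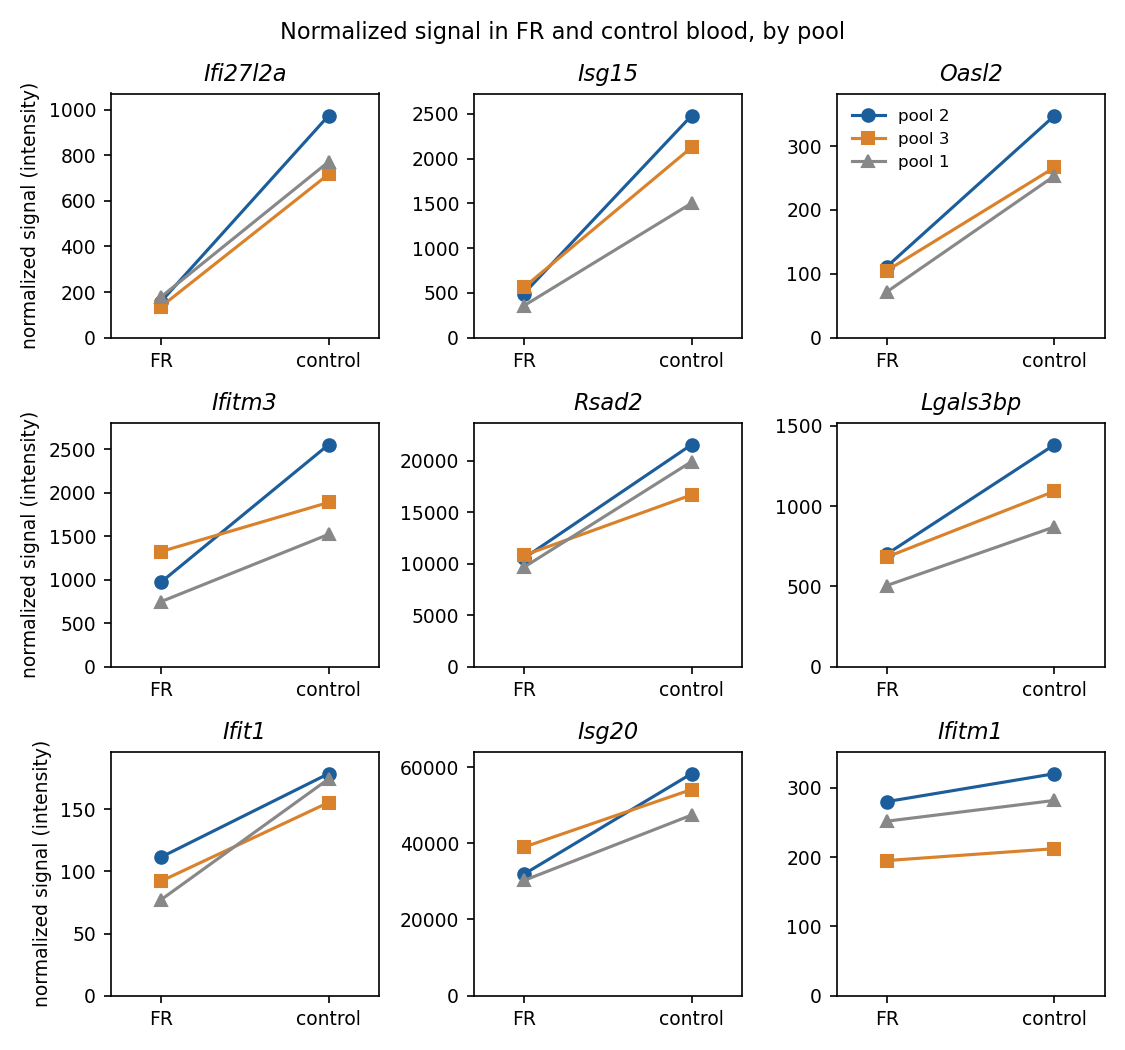
Normalized signal (vertical axis, linear from 0) in FR (left) and control (right) for 9 genes, with a line for each pool. In Isg15 the FR pools reach 561 at most and the control pools are at 1500.3 or more, while in Ifitm1 the lines are nearly level.

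No RNA sensor passed the test, and 1 of the 3 was bright enough to be tested. Ifih1 encodes MDA5, a sensor of long double-stranded RNA. It had 88.9, 97.8 and 84.9 in FR pools 1, 2 and 3, against 95.9, 90.5 and 90.4 in control pools, and the groups overlapped. Its log2 ratio was 0.01 (limma adjusted p = 0.96), with FR above background on only 1 of the 4 arrays of pools 2 and 3. Ddx58 (RIG-I) and Dhx58 (LGP2), its relatives, were below the filter. Dhx58 read -0.15, -0.09 and 0.06 in pools 1, 2 and 3. In the same order of pools, 1 Ddx58 probe read -0.45, -0.39 and -0.32. The other Ddx58 probes read -0.02, -0.10 and 0.004, and -0.07, 0.01 and -0.09.

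The IFITM family, membrane proteins that hinder virus entry, was split by member. Ifitm3 had 748, 972 and 1325 in FR pools 1, 2 and 3, against 1522, 2555 and 1890.3 in control pools. The groups did not overlap, though the pools disagreed in size, with log2 ratios of -1.03, -1.39 and -0.51. The mean was -0.95 ± 0.62 (SD, n = 2 pools, limma adjusted p = 8.2e-10, and 0.031 under the 3-pool prior). Ifitm2 had 152, 239 and 214 in FR pools, against 239, 375 and 241 in control pools. Its log2 ratio of -0.41 ± 0.34 (SD, n = 2 pools) had a limma adjusted p of 0.035 and of 0.18 under the 3-pool prior. A second Ifitm2 probe read -0.23, -0.38 and 0.05 in pools 1, 2 and 3. With the mean over both probes Ifitm2 was at -0.29 and did not pass (limma adjusted p = 0.165). Ifitm1 had 252, 280.1 and 195 in FR pools, against 282, 320.4 and 212 in control pools. The groups overlapped, and the log2 ratio of -0.16 ± 0.05 (SD, n = 2 pools) did not pass (limma adjusted p = 0.53).

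Ifi27l2a, a small interferon-induced protein of mitochondria and the nuclear envelope, was lower in FR in every pool. Its signal was 178, 158 and 136 in FR pools 1, 2 and 3, against 771, 974 and 717 in control pools. The groups were far apart, and FR cleared background on 3 of the 4 arrays. Its log2 ratio was -2.51 ± 0.16 (SD, n = 2 pools), 5.71-fold lower, with a limma adjusted p of 1.6e-57, and 0.0015 under the 3-pool prior. A second Ifi27l2a probe read -0.98, -1.54 and -0.98 in pools 1, 2 and 3, and the mean over both probes was -1.89. Ifi27l2a, Isg15 and Oasl2 were at least 2-fold lower in each of the 3 pools, 3 of 24 genes, beside 3.68% of all features. Ifi27l2a and Oasl2 entered through the control arrays alone, which favours genes that fall, so this count is a description.

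Parp14, a mono-ADP-ribosyltransferase, had 72.0, 104 and 91.7 in FR pools 1, 2 and 3, against 209.5, 275 and 173 in control pools. On none of the 4 arrays did FR clear background, and control was at least 2.23-fold higher (limma adjusted p = 5.5e-14). The other Parp14 probes, which did not pass the filter, read -0.10 and -0.24 in pool 2. Trim30a, a ubiquitin ligase of the TRIM family, had 73.7, 89.8 and 85.8 in FR pools, against 136, 171 and 116 in control pools. Control was at least 1.61-fold higher (limma adjusted p = 3.7e-07). Both genes were separated between diets without overlap, but both entered through the control arrays alone, which favours such a gap. For both the bound is the fitted mean fold itself, since their FR signals lay above the lowest signal that cleared background, and pool 3 alone had smaller log2 ratios of -0.92 for Parp14 and -0.44 for Trim30a. Ifi35, an interferon-induced leucine zipper protein, had 79.0, 79.6 and 76.1 in FR pools, against 102, 111 and 93.1 in control pools, at least 1.24-fold higher in control (limma adjusted p = 0.0012).

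Lgals3bp, Rtp4, Ifi30 and Gbp2 were above background in both diets and were lower in FR. Lgals3bp, a secreted galectin-binding glycoprotein, had 505, 701 and 683 in FR pools 1, 2 and 3, against 870.4, 1382 and 1092 in control pools, and its log2 ratio was -0.83 ± 0.21 (SD, n = 2 pools, limma adjusted p = 1.4e-07). Rtp4, a chaperone of membrane receptors, had 117, 132 and 158 in FR pools, against 221, 262 and 226 in control pools, and its log2 ratio was -0.75 ± 0.34 (SD, n = 2 pools, limma adjusted p = 1.1e-05). In both genes every control pool was above every FR pool. Ifi30, the lysosomal thiol reductase of antigen processing, had 234, 362 and 408 in FR pools, against 382, 635 and 529 in control pools, and the groups overlapped at the pool 3 FR value. Its log2 ratio was -0.59 ± 0.31 (SD, n = 2 pools, limma adjusted p = 0.00045, and 0.054 under the 3-pool prior). Gbp2, a guanylate-binding GTPase that attacks the membranes around intracellular pathogens, had 135, 155 and 165 in FR pools, against 213, 227 and 237 in control pools. Its log2 ratio was -0.54 ± 0.01 (SD, n = 2 pools, limma adjusted p = 0.0030, and 0.0502 under the 3-pool prior). Gbp3, of the same family, was not tested; it read -1.06, -1.03 and -0.25 in pools 1, 2 and 3. Ifi44 read -0.04, -0.08 and -0.01.

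**Figure D3:**
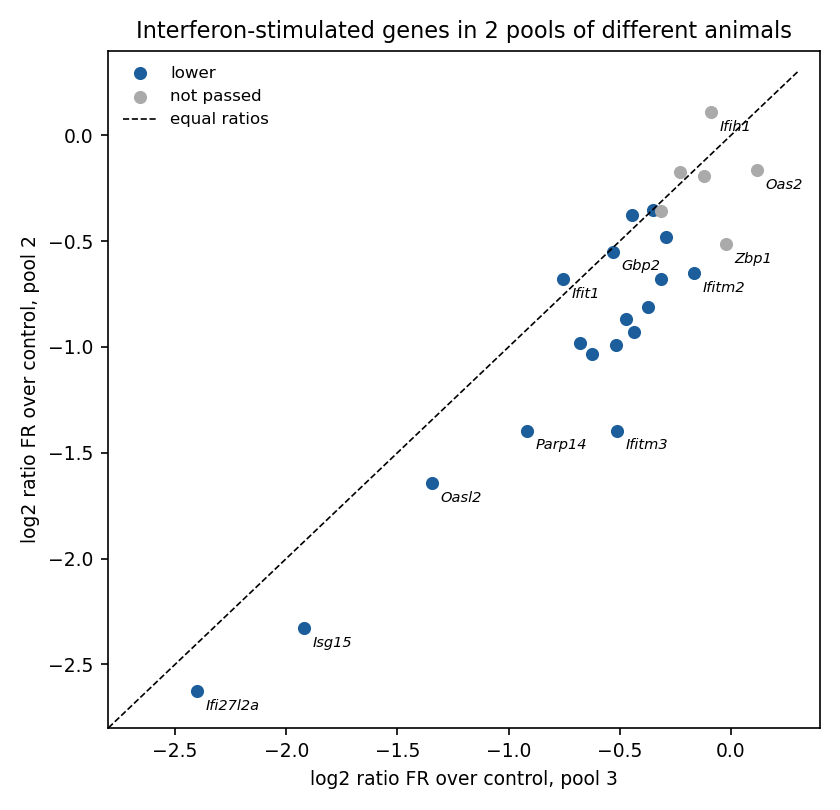
Log2 ratio of FR over control in pool 2 (vertical axis) against pool 3 (horizontal axis) for the 24 tested genes, blue where lower at a limma adjusted p under 0.05 and grey where not passed; the dashed line marks equal ratios. Of the 24 genes, 20 lie under the line.

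Genes of the pathway upstream were read from lists assembled by role. Of the interferon ligands, 4 of 17 were bright enough to test (Ifna2, Ifna9, Ifna13 and Ifng) and 0 changed, with a median log2 ratio of 0.08. All 4 tested receptor chains were lower, beside 24.5% of all features. Ifngr1 entered through control alone, and the other 3 were above background in both diets. Ifngr1 was at -1.46 ± 0.52, Il10rb, a chain of the lambda interferon receptor, at -0.94 ± 0.35, Ifngr2 at -0.66 ± 0.12 and Ifnar2 at -0.55 ± 0.17 (log2 ratios, SD, n = 2 pools). Their limma adjusted p-values were 1.3e-18, 3.3e-08, 0.00020 and 0.00098 in that order.

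Of the 10 tested receptor kinases, STAT and IRF factors, 9 were lower, with a median log2 ratio of -1.12, beside the 24.5% of all features lower. Of these 10 genes 7 entered through the control arrays alone, which favours genes that fall, and 2 of the 3 above background in both diets were lower. The kinase Jak1 was at -1.96 ± 0.07 (SD, n = 2 pools, limma adjusted p = 9.8e-39). Irf8, a factor of monocyte and dendritic cell development, was at -2.01 ± 0.38, Irf1 at -1.66 ± 0.63, Irf7, which drives interferon alpha genes, at -1.63 ± 0.26, and Irf3, which drives interferon beta, at -1.35 ± 0.55 (SD, n = 2 pools). Irf5 was at -0.89, Irf9, the DNA-binding partner of STAT proteins, at -0.49 and Irf2 at -0.47, each past the limma threshold. Jak2 was at -0.32 (limma adjusted p = 0.13), and Tyk2 and Stat2 were below the filter.

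Among 6 tested inhibitors of interferon signalling 3 were lower: Socs3 at -0.42, Ptpn11 at -0.41 and Pias1, for which FR cleared background on none of the 4 arrays and control was at least 1.27-fold higher (limma adjusted p = 0.00083). Of these 6 inhibitors 2 entered through control alone, and 1 of the 4 above background in both diets was lower. Of 8 tested genes of nucleic acid sensing 4 were lower. Among them, Unc93b1, which carries Toll-like receptors to endosomes, was at -1.63, Trim25 at -0.75 and Traf3 at -0.67. Of the 8 sensing genes 5 entered through control alone, and 1 of the 3 above background in both diets was lower. Among all features bright in both diets 18.5% were lower. Of 31 other tested interferon-induced genes 22 were lower and 0 higher, again beside 24.5% of all features. Of the 31 genes 19 entered through control alone, and 8 of the 12 above background in both diets were lower. Ly6e was at -2.96 ± 0.47, B2m, the light chain of MHC class I, at -2.33 ± 0.05 and the proteasome activator subunit Psme2 at -2.17 ± 0.41 (log2 ratios, SD, n = 2 pools).

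Markers of several blood cell types were lower as well. Of the tested markers, 9 of 10 for monocytes were lower, with Ctss at -3.48 and Lyz2 at -3.23, and their summed signal was 4492 to 5682 in FR pools, against 32709 to 46670.5 in control pools. For B cells 9 of 12 were lower, with Cd79b at -4.48 and Fcmr at -3.77, and the sum was 2136 to 2673 in FR pools, against 9294 to 16400.5 in control pools. For plasmacytoid dendritic cells 4 of 7 were lower and 3 did not pass. Lowest were Ly6d at -3.18 and Irf8 at -2.01, which the factor list also holds. Of these 7 markers 5 entered through control alone, and 0 of the 2 above background in both diets were lower. The sum of the 7 was 1469 to 2055 in FR pools, against 2853 to 3648 in control pools. The members' own sum was 43690.3 to 54973 in FR pools, against 75176 to 91257 in control pools. Isg20 and Rsad2 gave 89.7% to 91.3% of it in FR pools and 87.5% to 89.6% in control pools, and the other 22 genes summed to 3788 to 5163 in FR pools, against 7847 to 11412 in control pools. The part of these cell types in the result was not tested.

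Marker lists of other cell types were read in the same way. For NK cells 4 of 6 were lower (Ccl5 at -1.67, Nkg7 at -1.52), with sums of 489.5 to 655 in FR pools, against 1227 to 1562 in control pools. For T cells 4 of 9 were lower (Cd3d at -1.89, Thy1 at -1.88), with sums of 3058 to 3402 in FR pools, against 4254 to 4588 in control pools. The other 5 T cell markers did not pass, among them Cd3e at -0.05 and Cd3g at -0.12. For platelets 9 of 12 were lower (Ppbp at -2.67, P2ry12 at -2.07), with sums of 38832 to 41062 in FR pools, against 91561 to 100784 in control pools. Neutrophil markers were mixed, with 4 of 10 lower and 1 higher (Clec4d at -1.51, S100a9 at -0.73) and sums of 9138 to 11463 in FR pools, against 12724 to 23794 in control pools. Reticulocyte markers had 3 higher and 1 lower of 12 (Slc25a37 at 1.05), with sums of 613298 to 729766 in FR pools, against 533079 to 630274 in control pools. Their part in the result was not tested either. The marker counts also stand beside 24.5% of all features lower. Entry through control alone held for 7 of the 10 monocyte, 6 of the 12 B cell and 5 of the 6 NK cell markers. It also held for 4 of the 9 T cell and 3 of the 10 neutrophil markers, and for no platelet or reticulocyte marker. All 12 platelet markers were above background in both diets, and 9 were lower, beside 18.5% of features bright in both diets. Of the T cell markers above background in both diets, 1 of 5 was lower. The same count was 3 of 3 for monocyte, 3 of 6 for B cell, 1 of 1 for NK cell and 3 of 6 for neutrophil markers.

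**Figure D4:**
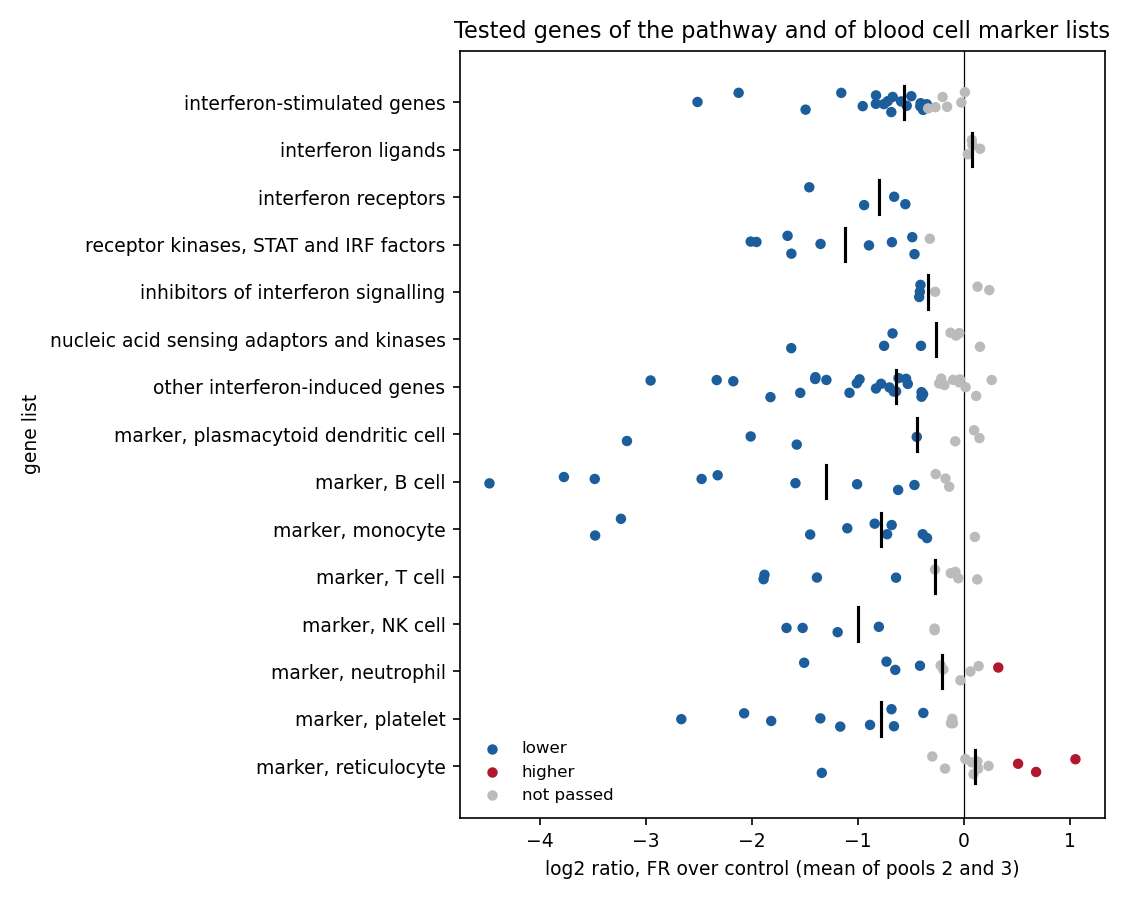
Log2 ratio of FR over control, mean of pools 2 and 3 (horizontal axis), for tested genes of each list (rows), with blue for lower, red for higher and grey for not passed, and a black bar at the list's median. The median of the interferon-stimulated genes is -0.57, that of the receptor kinases, STAT and IRF factors -1.12 and that of the ligands 0.08.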

How the data were processed

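RNA of whole blood pools was hybridised on two-colour arrays. Scanner files, as deposited, give each spot's intensity; the submitters' processing notes name Agilent Feature Extraction 11.0.1.1. The authors' deposited series table gives log10 ratios of red over green processed signal, which equalled the scanner values and served as an alternative. Background was corrected with normexp (offset 50) on median signals, since the columns used here hold no means, and log2 ratios were normalized by loess within arrays in limma 3.58.1 (R 4.3.3). Control spots and outlier spots (150 to 205 an array) were left out, 0 were saturated, ratios were turned to FR over control from the dyes in the labels, and the 2 arrays of a pool were averaged. Turned arrays correlated at 0.70 to 0.94.

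Of 41174 probes 23374 were named by accession through the RefSeq table (GRCm38.p6). A feature was tested if FR or control cleared background on each of the 4 arrays of pools 2 and 3 (lmFit, eBayes with trend, two-sided against 0), with the brightest probe for a gene. Between 20.4% and 55.6% of spots were above background for FR and 37.2% to 62.1% for control, and array number limits precision. Where FR was above background on none of the 4 arrays, the fold is a bound ("at least"), from single-channel signals (loess, then Aquantile), the dim one raised to the lowest signal that cleared background where it lay under it. Since a ratio is taken within an array, FR and control are paired by pool through the hybridisation and not through shared animals. Slide was not mixed with diet.

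Every gene of the list on the array is named, with the tested receptors and factors, the 3 largest called changes of other pathway lists and the 2 largest of marker lists. Of the genes this rule takes, 2 are not reported here. The genes and lists were chosen with earlier results of these data known. The test was checked on simulated data and repeated under 16 other settings.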

Additional observations from a re-analysis of the deposited data

How the results depend on the processing

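The count of lower genes in the list was 18 of 24 and was 12 to 23 in the settings other than the next 2, the 23 without a filter on dim probes. With FR and control both required above background it was 10 of 11, and all changed features numbered 1749 and changed pathway genes 15, against 3255 and 42. With no replicate block, FR and control unpaired, it was 9, with 1101 features and 20 pathway genes changed. Under prior degrees of freedom estimated from 3 pools, 1964 features changed. Changed features numbered 2845 with pool 1 in place of pool 2 and 5883 with pool 1 in place of pool 3, though pool 1 shares animals with the pool kept. The list's median log2 ratio of -0.57 became -0.87 with Agilent processed signals, -0.76 with a normexp offset of 10, -0.76 with median centring, where the median of all features was -0.18, and -1.02 with the authors' series table. The cause was not tested for any of these. No result reversed in the 16 settings. Ifi27l2a, Isg15, Oasl2, Parp14, Ifitm3, Rsad2, Lgals3bp and Ifit1 stayed lower in each setting that tested them. Ifitm2 lost its call in 9 of 16, Oas3 in 5 of 16 and Ifit2 in 4 of 15, while Bst2 gained one in 8 of 15, Usp18 in 7 of 15 and Zbp1 in 5 of 15. Dim FR signals limit the folds of Parp14, Trim30a, Ifit3, Ifi35 and Usp18, where FR was above background on none of the 4 arrays. In 8 other tested genes, Ifih1 and Oas2 among them, FR was above background on only 1 to 3 of the 4.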
